A study of Mus musculus with 7 samples.

Results

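The counted cells of bone marrow were set against those of blood in naive mice, which carried no tumor, to describe monocytes of the tissue in which they are made beside monocytes in circulation. Members were all cells with counts whose deposited library name was naive bone marrow (153 cells) or naive blood (814 cells), 967 of the 4290 counted cells of the series. The comparison was repeated inside 2 of the authors' clusters, cluster 0 (74 marrow and 200 blood cells) and cluster 2 (28 and 132 cells). The mice were C57/Bl6, and both libraries were labelled as enriched for CD11b+ cells, CD11b being an integrin chain carried by myeloid cells. The series text names magnetic enrichment for blood, spleen and tumor and does not name marrow there, so the tissue and the handling of its cells cannot be told apart. Each tissue gave 1 library, and the labels do not give the number, age or sex of the mice or say whether they were pooled. There was therefore no replicate error and no test. Each fold is given with an exact 95% Poisson interval that covers counting error only. A second marrow and blood pair came from C57/Bl6 mice at day 14 of an LLC tumor (57 and 354 cells), also enriched for CD11b+ cells, and shared no library with the naive pair.

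Classical monocytes are made in the bone marrow from dividing progenitors and enter the blood with the help of the chemokine receptor CCR2, while CXCR4, the receptor for CXCL12, holds cells in the marrow. In blood a share of them turn into non-classical monocytes, which patrol the vessel wall and need the nuclear receptor NR4A1. Neutrophils are made in the same marrow in far larger numbers and load their secondary granules with lactoferrin, cathelicidin and related proteins while still there.

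RNA was read as unique molecular identifiers (UMIs), which count molecules and not copies of them. The marrow library held 1540719 UMIs with a median of 10281 per cell, and the blood library 9776945 with a median of 11733, so that 3 UMIs stood for 1.95 and 0.307 CPM, counts scaled to a library total of 1000000. Mitochondrial transcripts were 3.13% and 2.85% of a cell's UMIs in the median, and the libraries shared 0 cell barcodes. Monocyte markers were present in both libraries. Ly6c2, a surface protein of classical monocytes, stood at 2001 CPM in marrow and 1366 in blood, Csf1r, the receptor for macrophage colony-stimulating factor, at 523 and 697, and F13a1, a coagulation factor of classical monocytes, at 939 and 561. Cd3e, a chain of the T cell receptor complex, had 0 UMIs in both. Marrow cells lay mainly in clusters 0 (48.4%), 2 (18.3%) and 1 (11.1%). Blood cells lay in cluster 0 (24.6%), cluster 1 (22.5%), clusters 2 and 4 (132 cells each) and cluster 6 (14.5%). Cluster 4 held 1 marrow cell and 132 blood cells, and cluster 12, in which the neutrophil genes S100a8 and S100a9 were highest, held 14 and 11. Because sums over all cells follow this makeup, fewer cells of a kind and less RNA per cell cannot be told apart in them.

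Regulatory sequences of granule genes higher in marrow and of immediate early genes lower in marrow are shown first, because short motifs were counted in them. Each is the 250 bases before the RefSeq transcription start in GRCm38.p6, written 5′ to 3′ on the gene's strand. Capitals mark matches on either strand. In Ngp (neutrophilic granule protein, chr9:110419558-110419807, plus strand) and Ltf (lactoferrin, chr9:111019042-111019291, plus strand), the most marrow-sided genes after Camp, capitals mark TTGCNNAA, a core bound by C/EBP factors, which drive granule genes.
Ngp: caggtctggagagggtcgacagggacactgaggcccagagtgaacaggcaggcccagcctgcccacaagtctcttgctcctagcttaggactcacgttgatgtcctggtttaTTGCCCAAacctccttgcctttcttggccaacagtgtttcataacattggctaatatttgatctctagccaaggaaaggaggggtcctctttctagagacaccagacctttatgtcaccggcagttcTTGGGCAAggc
Ltf: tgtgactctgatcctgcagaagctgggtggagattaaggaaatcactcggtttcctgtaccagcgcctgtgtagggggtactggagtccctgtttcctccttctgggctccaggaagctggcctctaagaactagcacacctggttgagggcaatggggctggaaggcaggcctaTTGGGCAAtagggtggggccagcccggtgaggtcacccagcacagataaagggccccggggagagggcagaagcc
In Fos (chr12:85473640-85473889, plus strand) and Dusp1 (chr17:26508473-26508722, minus strand), the first an AP-1 subunit and the second a phosphatase that switches off MAP kinases, and in Nr4a1 (chr15:101266596-101266845, plus strand), capitals mark TGACG, the core of the cyclic AMP response element. The full element TGACGTCA contains TGACG and is capitalised whole in Dusp1.
Fos: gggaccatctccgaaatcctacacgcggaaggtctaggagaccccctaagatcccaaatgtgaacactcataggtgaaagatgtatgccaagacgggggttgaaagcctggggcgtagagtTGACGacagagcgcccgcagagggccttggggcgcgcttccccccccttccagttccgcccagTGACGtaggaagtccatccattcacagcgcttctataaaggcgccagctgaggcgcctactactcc
Dusp1: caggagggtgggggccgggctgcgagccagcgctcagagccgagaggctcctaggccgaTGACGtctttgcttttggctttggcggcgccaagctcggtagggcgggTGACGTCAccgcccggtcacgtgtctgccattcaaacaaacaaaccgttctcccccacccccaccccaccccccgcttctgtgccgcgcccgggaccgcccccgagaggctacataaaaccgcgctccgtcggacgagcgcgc
Nr4a1: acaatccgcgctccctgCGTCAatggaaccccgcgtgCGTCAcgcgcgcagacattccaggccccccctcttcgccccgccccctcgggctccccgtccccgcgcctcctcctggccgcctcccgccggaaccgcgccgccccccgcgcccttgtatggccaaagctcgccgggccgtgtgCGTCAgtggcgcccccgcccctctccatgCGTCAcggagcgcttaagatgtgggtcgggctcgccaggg
TTGCNNAA was found in 9.56% of 32851 such windows. It was in 6 of the 8 windows found among the 10 granule-list genes higher in marrow, which include S100a8 and S100a9. Of the 9 windows of the immediate early genes lower in marrow, 1 held it. Camp had no match in its window. TGACG was found in 17.8% of all windows, in 5 of the 9 immediate early windows and in 0 of the 8 granule windows. The full element was in 1.55% of all windows and in 2 of the 9, those of Dusp1 and Ppp1r15a. A match describes these letters only and shows no binding, and starts differ between annotations. GENCODE M21 begins Ngp and Ltf inside the windows shown, and its Nr4a1 and Dusp1 genes begin further upstream and contain theirs.

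Of 5433 genes measured over all cells (a combined count of 30 UMIs or more, and 20 CPM or more in marrow or in blood), 39 (0.718%) were 2-fold or more higher in marrow and 86 (1.58%) were 2-fold or more lower. The median log2 ratio, here always marrow over blood with a pseudo-count of 1 CPM, was 0.01 over all measured genes. The interval lay wholly past 2-fold for 15 of the 39 and 36 of the 86. Leaving out the cell richest in each gene from each library kept 28 of the 39 and 86 of the 86 past 2-fold. Leaving out cells takes more from the smaller marrow library, so this check bears on the higher genes only.

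**Figure D1:**
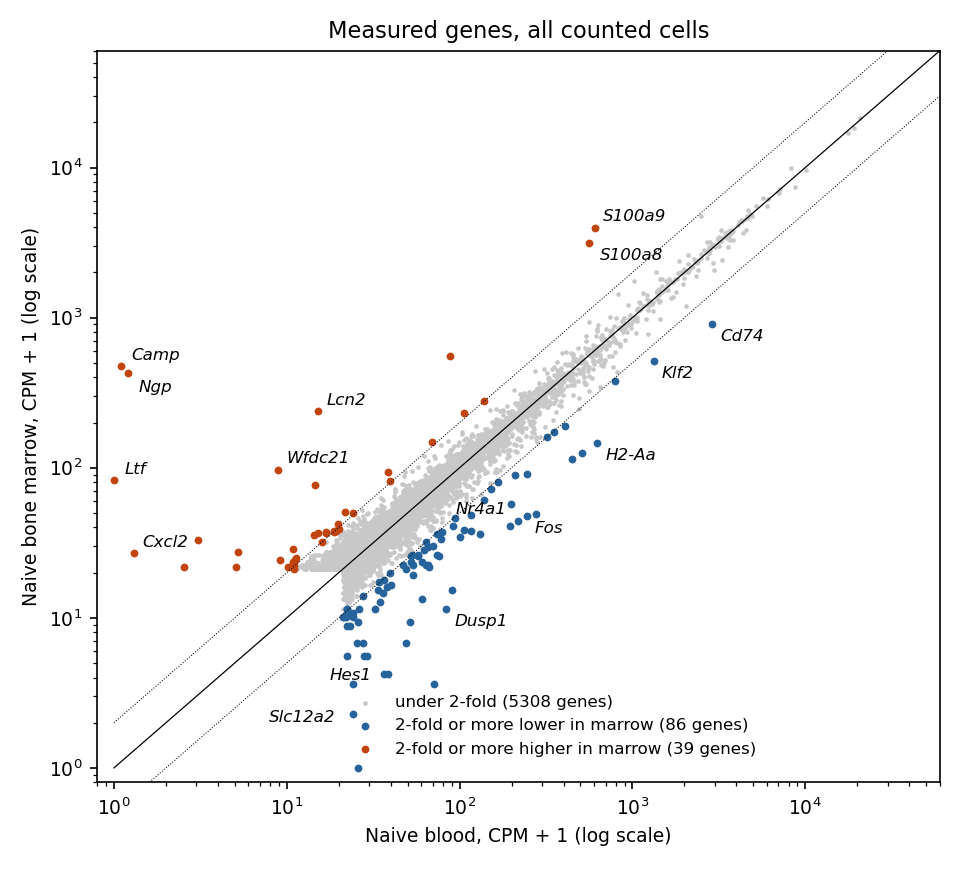
Level of each measured gene in naive blood (x axis) and naive bone marrow (y axis), in CPM plus 1 on log scales; the solid line marks equal levels and the dotted lines 2-fold, orange points are the 39 genes 2-fold or more higher in marrow and blue points the 86 lower. Camp, Ngp and Ltf stand at the left edge, near 0 in blood and between 81.8 and 473 CPM in marrow, with Cxcl2 below them, while the lower genes form a band below the diagonal.

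Neutrophil granule genes led the marrow side. Of 15 measured secondary and tertiary granule genes, 10 were higher in marrow and 0 lower, against 0.718% of all measured genes higher, and their median log2 ratio was 2.48. Camp (cathelicidin, chromosome 9, 109847379 to 109849617), an antimicrobial peptide precursor, had 728 UMIs in marrow and 1 in blood, or 473 and 0.102 CPM, a ratio of 4620 (interval 827 to 182715). Ngp (chromosome 9, 110419747 to 110423012) had 658 and 2 UMIs, a ratio of 2088 (576 to 17275). Ltf (chromosome 9, 111019271 to 111042767), which binds iron, had 126 UMIs in marrow and 0 in blood and was at least 267-fold higher, taking 3 UMIs of the blood library as its floor. These 3 genes lie on 1 chromosome and were all but missing from blood.

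The other named genes of the granule list were present in both tissues. Lcn2, which takes up iron-carrying bacterial siderophores, stood at 238 and 14.2 CPM, 16.7-fold higher in marrow (13.7 to 20.5). Wfdc21, a small secreted protein, stood at 96.1 and 7.88 CPM, 12.2-fold higher (9.20 to 16.3). S100a9 and S100a8 are also on the list, although they encode the 2 chains of calprotectin, a calcium-binding cytosolic protein abundant in neutrophils. S100a9 stood at 3980 and 604 CPM, 6.59-fold higher (6.35 to 6.83), and S100a8 at 3138 and 561 CPM, 5.60-fold higher (5.38 to 5.82). Retnlg, a secreted resistin-like protein, was 6.4-fold higher (5.81 to 7.04). The gelatinase Mmp9 (2.39-fold, 1.81 to 3.12) and the collagenase Mmp8 (2.15-fold, 1.84 to 2.51) were the 2 that fell short of 2-fold without the richest cells, at 1.68-fold and 1.79-fold. Chil3, a chitinase-like protein that classical monocytes also make, stood at 2377 and 1852 CPM (1.28-fold), and Anxa1 had a log2 ratio of -0.11.

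Granule transcripts were spread over almost every marrow cell. Camp, Ngp and Ltf together had at least 1 UMI in 74 of 74 marrow cells of cluster 0, 17 of 17 of cluster 1, 28 of 28 of cluster 2, 12 of 12 of cluster 6, 5 of 5 of cluster 16 and 13 of 14 of cluster 12. The medians were 8.5, 7, 8, 9, 8 and 7 UMIs per cell. In blood 1 of 200, 1 of 183 and 1 of 132 cells of clusters 0, 1 and 2 had such a UMI, and none in clusters 6, 16 and 12. For Camp, Ngp and Ltf the 2 tissues thus hardly overlapped in any of these clusters. These genes were the most marrow-sided over the same cells, so their near absence from each blood cluster followed from that choice. The lack of overlap describes these genes only.

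Levels lay near each other in 5 clusters and were higher in cluster 12, where 1 cell of 18029 UMIs weighed heavily. That cell held 106 of the 146 Camp UMIs and 142 of the 183 Ngp UMIs of marrow cluster 12. Camp in marrow was 397, 437, 344, 448 and 406 CPM in clusters 0, 1, 2, 6 and 16, and 1891 in cluster 12. Ngp per Camp UMI was 0.786, 0.671, 0.864, 1.10 and 0.850 in the same order, and 1.25 in cluster 12. For S100a9, the marrow level exceeded the blood level by 2091, 1892, 1999, 2428 and 1676 CPM, and by 17265 in cluster 12. In marrow cluster 12 the same 1 cell held 1894 of the 2110 S100a9 UMIs. The median marrow cell held 22, 20, 24.5, 23 and 21 UMIs of S100a9, and 15 in cluster 12. Blood itself ranged from 104 CPM in cluster 6 to 1111 in cluster 2 and stood at 10066 in cluster 12. Every marrow cell held at least 4 UMIs of S100a9 (median 22), whereas the median blood cell held 1, and 15 blood cells held 100 or more. Outside cluster 12, the 69 marrow cells with fewer UMIs averaged 7.94 UMIs of the 3 genes and the 70 with more UMIs 8.90. UMIs from free RNA in the marrow suspension cannot be told from a cell's own in these counts, and their part in the granule values was not tested.

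**Figure D2:**
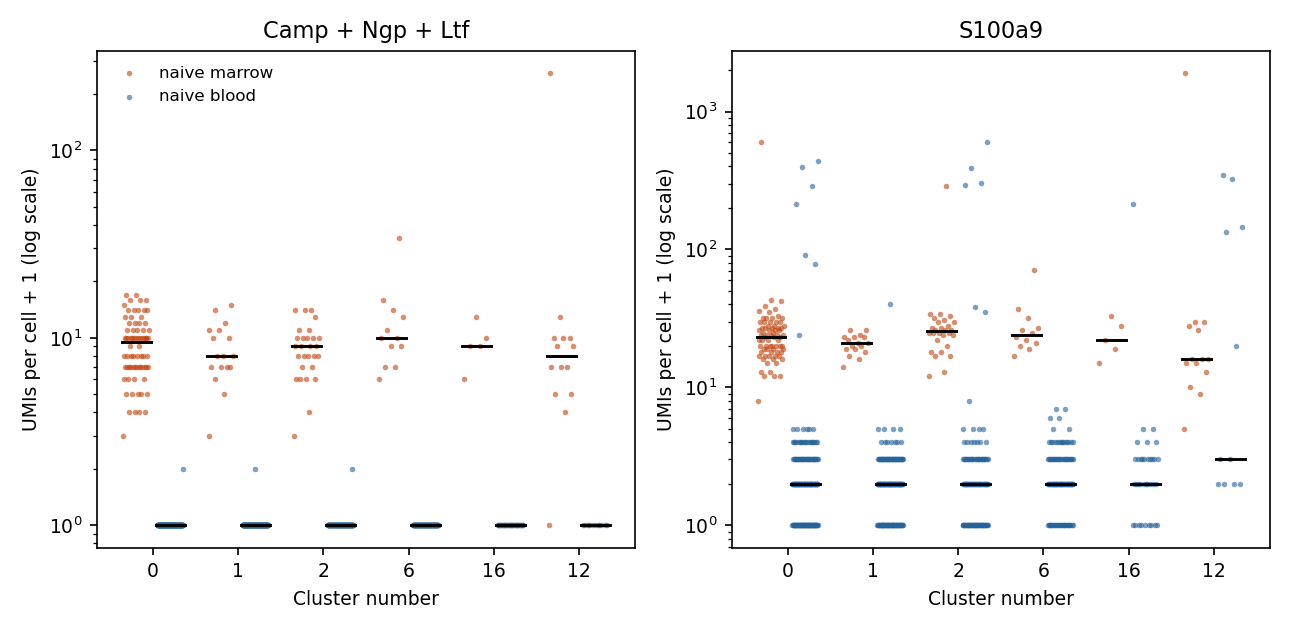
UMIs per cell plus 1 (log scale) of Camp, Ngp and Ltf together (left) and of S100a9 (right), by cluster number, for naive marrow (orange) and naive blood (blue); each point is a cell and each bar the median. Clusters with under 5 cells in a library are not drawn. Marrow medians of the 3 genes lie between 7 and 9 UMIs in every cluster, and blood medians are 0.

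Of 18 mature neutrophil markers 7 were measured and 5 were higher in marrow (3 without the richest cells), against 0.718% of all measured genes. All 5 were also on the granule list. The marker list summed to 8423 CPM in marrow and 1751 in blood. Across the 6 clusters with at least 5 cells in both it ran from 3916 to 61308 CPM in marrow and from 411 to 25589 in blood. The 61308 CPM was that of cluster 12, where 1 cell held 1865 of the 1995 S100a8 UMIs and 1894 of the 2110 S100a9 UMIs. Csf3r, the receptor for granulocyte colony-stimulating factor, was level at 138 and 133 CPM, and Cxcr2, a chemokine receptor of neutrophils, stood at 11.7 and 16.9. Ly6g, the defining surface marker of mouse neutrophils, had 23 and 8 UMIs (14.9 and 0.818 CPM), and Stfa1 had 0 in marrow. A single marrow cell of cluster 12, with 18029 UMIs, held 30.9% of the library's S100a9, 38.6% of its S100a8 and 48.1% of its Retnlg. Without the richest cell of each gene in each library, S100a9 was 5.12-fold, S100a8 3.80-fold, Retnlg 3.75-fold and Lcn2 13.7-fold higher in marrow.

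Immediate early genes, which are switched on within minutes of a stimulus, were among the genes lower in marrow. Of 21 measured, 9 were lower in marrow and 0 higher, against 1.58% of all measured genes lower, with a median log2 ratio of -0.93. Fos (chromosome 12, 85473890 to 85477273) stood at 46.7 CPM in marrow and 243 in blood, 5.20-fold lower in marrow (4.12 to 6.67). Dusp1 (chromosome 17, 26505590 to 26562128) stood at 10.4 and 82.8 CPM, 7.98-fold lower (4.88 to 14.0). Nr4a1 (chromosome 15, 101254269 to 101274795), which non-classical monocytes need, stood at 43.5 and 216 CPM, 4.96-fold lower (3.89 to 6.43). Jund, the AP-1 partner of Fos, was 3.96-fold lower (3.41 to 4.64) and Jun 2.38-fold lower (1.79 to 3.24). Dusp2, a further MAP kinase phosphatase, was 6.17-fold lower (2.95 to 15.5) and Ppp1r15a, which restarts translation after stress, 4.17-fold lower (2.16 to 9.23). Zfp36, which speeds the decay of cytokine mRNAs, was 2.70-fold lower (2.27 to 3.23), and Klf2, a transcription factor that restrains monocyte activation, stood at 514 and 1324 CPM, 2.58-fold lower (2.40 to 2.77). Fosl2, with a log2 ratio of 0.83, lay on the other side.

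The difference was present in each cluster large enough to be summed. The immediate early list summed to 2749 CPM in marrow and 5156 in blood in cluster 0, to 3359 and 6039 in cluster 1 and to 2750 and 5548 in cluster 2. In clusters 6, 16 and 12 the sums were 2941 and 5170, 3231 and 5011, and 4223 and 6426 CPM. Blood was thus 1.52-fold to 2.02-fold higher in 6 of these 6 clusters, while naive spleen, with 4653 CPM over all its cells, lay between the 2 tissues. With every cell thinned to 5000 UMIs (145 marrow and 802 blood cells), Fos had a UMI in 17.9% of marrow cells (exact interval 12.1 to 25.2) and 49.4% of blood cells (45.9 to 52.9), against 26.8% and 66.1% unthinned. In cluster 0 the thinned shares were 16.4% and 71.1%. Dusp1 in cluster 0 had a UMI in 2.74% of thinned marrow cells (0.334 to 9.55) and 27.4% of blood cells (21.3 to 34.2). Cd3e, which monocytes do not make, had a UMI in 0% of the cells of both libraries.

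Socs3 and Il1b were lower in marrow as well. Socs3, which dampens cytokine receptor signals through STAT3, stood at 8.44 and 50.9 CPM, 6.04-fold lower in marrow (3.50 to 11.4). Il1b, the cytokine interleukin-1 beta, stood at 35 and 130 CPM, 3.70-fold lower (2.82 to 4.96). It was the 1 lower gene of 7 measured cytokines and chemokines, of which 1, Cxcl2, was higher. Of 19 measured heat shock and chaperone genes 3 were lower and 0 higher, against 1.58% and 0.718% of all measured genes. Hspa1a and Hspa1b, which encode the inducible HSP70 and are near-identical copies whose reads may be split uncertainly, were 6.30-fold (4.13 to 10.1) and 3.15-fold lower (2.21 to 4.65), and Hsph1, an HSP70 partner, 2.29-fold lower (1.65 to 3.27). The remaining 16 heat shock genes had log2 ratios of -0.80 to 0.08.

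RNA of MHC class II genes, which present antigen to T cells, was lower in marrow for 4 genes. Of 7 measured class II genes 4 were lower and 0 higher, against 1.58% and 0.718% of all measured genes. The median log2 ratio of the 7 was -1.68. The beta and alpha chains H2-Eb1, H2-Aa and H2-Ab1 stood at 48.0 and 276, 145 and 621, and 125 and 511 CPM in marrow and blood. They were 5.74-fold (4.56 to 7.33), 4.27-fold (3.74 to 4.91) and 4.08-fold (3.53 to 4.74) lower in marrow. Cd74, the invariant chain that escorts class II to the endosome, stood at 900 and 2884 CPM, 3.21-fold lower (3.04 to 3.39). Ciita, the activator of the class II genes, stood at 13 and 21.5 CPM, 1.65-fold lower (1.04 to 2.76). The thinned share of cells with a Cd74 UMI was 53.8% in marrow and 74.3% in blood, and for H2-Aa 8.97% and 28.1%.

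Cluster 6 carried the most class II RNA in both tissues, 6099 CPM summed over the list in marrow and 14031 in blood. The sums were 808 and 1248 CPM in cluster 0, 928 and 2834 in cluster 1, 2790 and 4484 in cluster 2, 2378 and 3717 in cluster 16 and 363 and 423 in cluster 12. Marrow was the lower in each of the 6, by 1.17-fold in cluster 12 to 3.05-fold in cluster 1. In blood cluster 6 also held most of the Igkc transcripts. Igkc, the kappa light chain, had 4 UMIs in marrow and 687 in blood. Cluster 6 held 583 of the blood UMIs and 0 of those in marrow. Of 13 B cell genes 1 was measured, Cd79b (log2 ratio -0.58), and the list summed to 29.2 CPM in marrow and 78.2 in blood, with 8 of the 13 at 0 in marrow. The part of B cell RNA in the class II values was not tested. In the MHC class I list 16 of 16 measured genes lay below 0 and none reached 2-fold, with a median of -0.20.

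Genes of non-classical monocytes were lower in marrow over all cells. Of 17 measured, 9 were lower and 0 higher, against 1.58% and 0.718% of all measured genes. The median log2 ratio of the 17 was -1.10, and 2 of the 9, Nr4a1 and Klf2, are also immediate early genes. Slc12a2, a sodium, potassium and chloride carrier, had 2 UMIs in marrow and 225 in blood, 17.7-fold lower (4.85 to 147). Eno3, a glycolytic enolase, stood at 5.84 and 48.1 CPM, 8.23-fold lower (4.30 to 18.1), but its log2 ratio turned to 0.23 at an equal mix of clusters, and in cluster 1 it stood at 35.9 and 13.8 CPM. Ace (chromosome 11, 105967945 to 105989964), the angiotensin-converting enzyme, stood at 39.6 and 196 CPM, 4.94-fold lower (3.83 to 6.48). Treml4, a receptor that binds dying cells, Spn, the sialoglycoprotein CD43, and Itgal, the alpha chain of LFA-1, were 3.10-fold (2.38 to 4.13), 2.43-fold (1.91 to 3.12) and 2.15-fold lower (1.91 to 2.43).

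The count depended on the clusters included, and the differences between lists were not tested. Without clusters 4 and 12, a setting chosen after seeing the data, 3 of 14 measured non-classical genes were past 2-fold lower (median -0.55), 10 of 21 immediate early genes and 4 of 7 class II genes. With both libraries given the same mix of clusters, the counts were 2 of 14 (median -0.26), 9 of 19 (-0.80) and 4 of 6 (-1.21). Over all measured genes, 59 were lower without clusters 4 and 12 and 37 at the same mix. The main setting had 86 of 5433 (1.58%). Inside cluster 0, 2 of 11 measured non-classical genes were lower, against 1.49% of all genes measured there. Itgal stood at 143 and 160 CPM in that cluster and Spn at 29.1 and 34.5. Hes1, a repressor induced by Notch, which promotes non-classical fate, had 5 UMIs in marrow and 346 in blood over all cells (10.9-fold lower, 4.63 to 33.8). In cluster 0 a Hes1 UMI was found in 2 of 74 marrow cells and 9 of 200 blood cells. After thinning the shares there were 2.74% and 1.52%, so no clear drop was seen in that cluster. Marrow was lower in cluster 1 (18.0 and 50.3 CPM) and in cluster 2 (0 of 28 and 23 of 132 cells with a UMI).

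**Figure D3:**
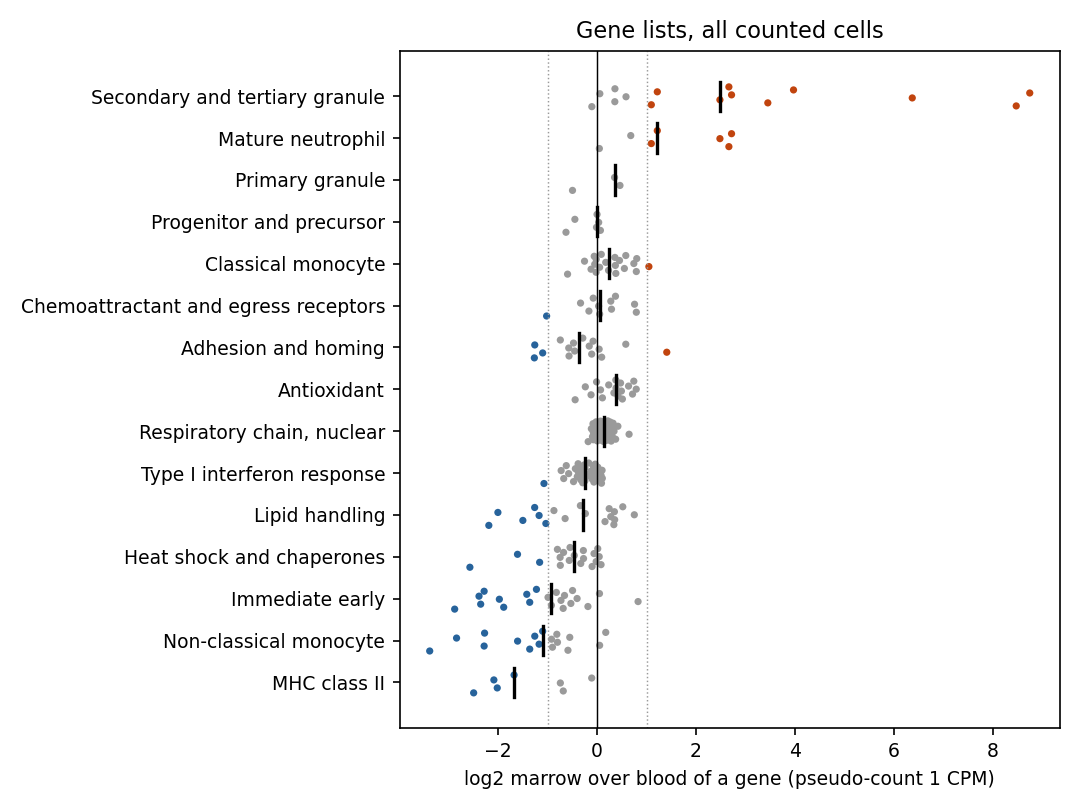
Log2 ratio of marrow over blood for each measured member of 15 gene lists over all counted cells, 1 point per gene; orange points are 2-fold or more higher in marrow, blue points 2-fold or more lower, grey points neither, and black bars are list medians. The granule list reaches 8.75 on the right, while the immediate early, non-classical and class II lists have medians of -0.93, -1.10 and -1.68.

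Ccr2 was higher in marrow, and none of the egress receptors was 2-fold higher. Of 11 measured chemoattractant and egress receptors 0 were higher and 1 was lower, against 0.718% and 1.58% of all measured genes. The median log2 ratio of the 11 was 0.05. Ccr2 (chromosome 9, 124101950 to 124113557) stood at 1758 CPM in marrow and 1015 in blood, 1.73-fold higher (1.66 to 1.81). In cluster 0 it was 1836 and 1468 CPM (1.25-fold, 1.17 to 1.33) and in cluster 2 1884 and 1095 (1.72-fold, 1.56 to 1.89). In clusters 1, 6, 12 and 16 Ccr2 stood at 1545 and 756, 1590 and 1329, 1813 and 887, and 1809 and 1072 CPM, so marrow was the higher in each. Cxcr4 (chromosome 1, 128588199 to 128592293) stood at 63.6 and 71.5 CPM, 1.12-fold lower with an interval that includes 1 (0.909 to 1.4). It was 1.4-fold lower in cluster 0 (0.983 to 2.03) and 1.06-fold higher in cluster 2 (0.609 to 1.74). Cx3cr1, the fractalkine receptor that rises as monocytes turn non-classical, was level at 306 and 296 CPM.

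Ccr1, a receptor for inflammatory CC chemokines, was 1.71-fold higher in marrow (1.31 to 2.22). S1pr5, a sphingosine phosphate receptor that non-classical monocytes use to leave the marrow, was the single lower gene, at 16.9 and 35.3 CPM (2.09-fold, 1.4 to 3.25), and its log2 ratio was 0.018 at an equal mix of clusters. The other 6 receptors, Fpr2, C5ar1, Adora2b, Ltb4r1, Ptger4 and Gpr183, had log2 ratios of -0.34 to 0.37.

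Among 16 measured adhesion and homing genes 1 was higher and 3 were lower, against 0.718% and 1.58% of all measured genes. Cd24a, a mucin-like protein of immature leukocytes, stood at 23.4 and 8.18 CPM, 2.86-fold higher in marrow (1.87 to 4.28). Cluster 12 held 11 of its 36 marrow UMIs. Cd24a stood at 21.5 and 6.04 CPM in cluster 0, but had 1 and 8 UMIs in cluster 2 (3.34 and 4.96 CPM) and 0 and 9 in cluster 1. Cd9, a tetraspanin, Spn and Itgal were lower, with log2 ratios of -1.27, -1.26 and -1.10. Itgam, which encodes CD11b, was level at 265 and 257 CPM, as were Selplg (-0.08) and Itga4 (-0.16) on the log2 scale. The beta chains Itgb2 (-0.45) and Itgb1 (-0.57) and Cd44 (-0.57), a hyaluronan receptor, were lower without reaching 2-fold.

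Some genes outside the granule list were also higher in marrow over all cells. Fam101b, an actin regulator, had 41 UMIs in each library, 26.6 and 4.19 CPM, 6.35-fold higher in marrow (4.01 to 10.0). Hmgn2, a nucleosome-binding protein abundant in dividing cells, stood at 92.2 and 37.6 CPM, 2.45-fold higher (2 to 2.98), and at 115 and 39.3 CPM inside cluster 0, 2.94-fold higher (2.17 to 3.97), while in cluster 6 it stood at 30.9 and 38.7 CPM. Vcan, a matrix proteoglycan of classical monocytes, was 2.09-fold higher (1.69 to 2.57). It had 0 UMIs in marrow and 33 in blood in cluster 6, and its log2 ratio was -0.0050 in the tumor-bearing pair. The coagulation factor F5 was 2.31-fold higher (1.67 to 3.15), but stood at 51.8 and 103 CPM in cluster 12. Vcan was the 1 of 21 measured classical monocyte genes past 2-fold, against 0.718% of all measured genes higher. The haemoglobin genes and Cxcl2 were past 2-fold through single cells. 1 cell of cluster 0 held 101 of the 116 marrow UMIs of Hbb-bs, and 1 cell of cluster 9 held 37 of the 40 of Cxcl2.

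Few genes of dividing cells and progenitors were measured. Of 4 measured replication genes 0 were past 2-fold, and of 10 mitosis genes only Hmgn2. Of all measured genes 0.718% were higher and 1.58% lower, so counts from so few genes say little. After thinning, 1 of 145 marrow cells (0.690%, exact interval 0.0175 to 3.78) and 0 of 802 blood cells (upper bound 0.459%) held 10 or more UMIs of 70 replication and mitosis genes. The shares depended on this threshold. At 5 or more UMIs they were 20.7% of marrow cells (14.4 to 28.2) and 11.8% of blood cells (9.69 to 14.3). The median cell held 2 UMIs of these genes in both libraries, and 5 or more was not shown to mark a dividing cell. Mki67, the nuclear protein used to mark dividing cells, had 13 UMIs in marrow and 17 in blood, 8.44 and 1.74 CPM. The early granule enzymes Mpo and Elane had 1 and 2 UMIs in marrow and 1 and 0 in blood, and the stem cell factor receptor Kit had 2 in marrow. None of 6 measured progenitor genes was past 2-fold, which says little beside the shares of all measured genes.

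Inside cluster 0, 68 of 5454 measured genes (1.25%) were higher in marrow and 81 (1.49%) lower. The granule list had 8 of 15 higher and the immediate early list 8 of 18 lower. Dusp1 had 2 UMIs in marrow and 213 in blood (36.3-fold lower, 9.92 to 301), Fos stood at 38.0 and 365 CPM (9.59-fold lower, 6.67 to 14.3), and H2-Eb1 at 3.80 and 39.3 (10.3-fold lower, 3.42 to 51.0). Il1b was 6.21-fold lower (3.49 to 12.2) and Lmna, which encodes the nuclear lamina protein lamin A, 8.34-fold lower (2.19 to 70.8). Camp stood at 397 and 0.431 CPM, and Lcn2 at 172 and 11.6 (14.8-fold higher, 9.74 to 23.3).

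Inside cluster 2, 115 of 5347 genes (2.15%) were higher and 318 (5.95%) lower, but with 28 marrow cells the interval lay wholly past 2-fold for 11 and 16 of them. The immediate early list had 12 of 21 lower and 1 higher, and the granule list 7 of 14 higher. Socs3 had 0 UMIs in marrow and 62 in blood and was at least 3.84-fold lower at the 3-UMI floor. Hes1 (0 and 35 UMIs) and Amz1, a zinc metalloprotease (0 and 81), were at least 2.17-fold and 5.01-fold lower. Nr4a1 was 6.31-fold lower (3.02 to 15.9) and Hspa1a 7.65-fold lower (3.22 to 23.8). Ms4a7, a membrane protein of monocytes, was 4.94-fold higher (3.20 to 7.59), with 25 of its 44 marrow UMIs in 1 cell, and Klhl6 4.65-fold higher (2.38 to 9.01).

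Of the 39 genes higher over all cells, 33 were measured in cluster 0, 33 of them on the marrow side and 21 past 2-fold. In cluster 2 the numbers were 21, 21 and 14. Of the 86 lower genes 49 were measured in cluster 0, 47 on the same side and 24 past 2-fold, and in cluster 2 68, 65 and 54. The clusters are subsets of the same libraries, so these counts locate the difference and do not repeat it.

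The tumor-bearing pair gave a separate marrow and blood reading. There 78 of 5492 genes (1.42%) were higher in marrow and 109 (1.98%) lower. Of the 39 naive genes 24 were measured, 21 lay on the marrow side and 10 were past 2-fold, and of the 86 lower genes 78, 76 and 35. Fos stood at 53.4 and 331 CPM (6.19-fold lower, 4.39 to 9.03), Dusp1 at 14.6 and 120 (8.26-fold lower, 4.32 to 18.2) and Socs3 at 8.09 and 95.3 (11.8-fold lower, 5.01 to 36.4). H2-Aa stood at 144 and 776 CPM (5.38-fold lower, 4.36 to 6.72) and Ace at 55.0 and 245 (4.46-fold lower, 3.17 to 6.47). By list, 10 of 21 immediate early, 5 of 6 class II and 7 of 17 non-classical genes were lower in tumor-bearing marrow.

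The granule genes were less far apart in that pair. Camp had 428 UMIs in marrow and 52 in blood (60.3-fold higher, 45.1 to 82.0), and 50 of the 52 came from 1 blood cell. S100a9 stood at 3553 and 1640 CPM (2.17-fold, 2.07 to 2.27), S100a8 was 1.53-fold higher (1.45 to 1.61) and Retnlg 1.03-fold (0.855 to 1.23). Of 16 measured granule genes 4 were higher and 1 lower, against 1.42% and 1.98% of all genes measured in that pair. Whether the pairs differ beyond the variation between libraries was not tested, since each has 1 library per tissue. Hmgn2 was 2.17-fold higher (1.63 to 2.86) and Ccr2 1.20-fold (1.10 to 1.30).

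**Figure D4:**
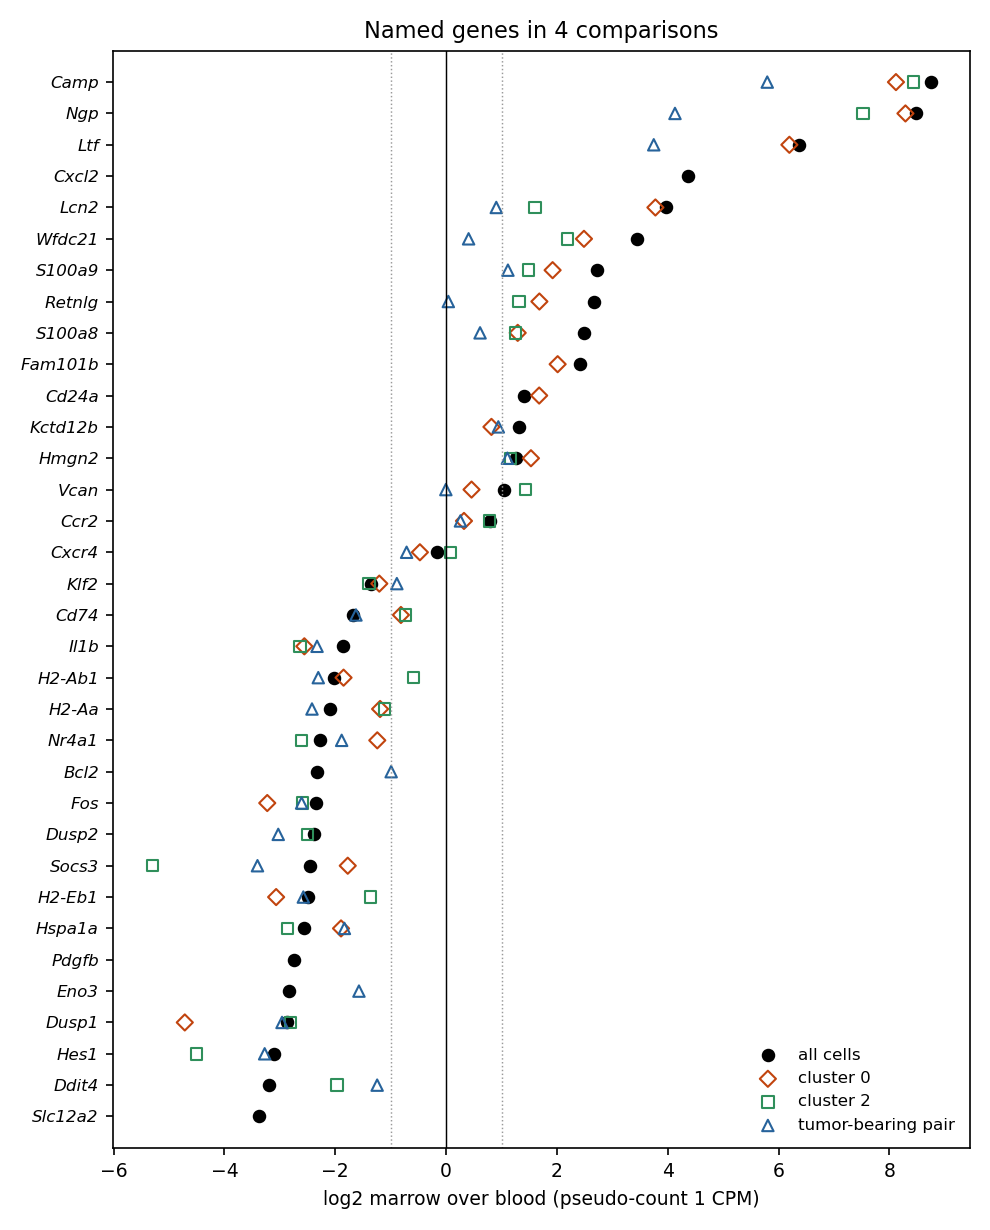
Log2 ratio of marrow over blood for named genes over all naive cells (filled circles), inside cluster 0 (diamonds), inside cluster 2 (squares) and over all cells of the tumor-bearing pair (triangles); a missing symbol means that the gene was not measured there, and dotted lines mark 2-fold. Fos, Dusp1, Socs3, Il1b and Hspa1a lie left of -1 in all 4 comparisons, and Camp and Ngp right of 4 in all 4.

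Surface proteins were read in the same cells with 47 antibodies, as tags per 10000 tags of the library (486448 tags in marrow and 2038929 in blood). None was 2-fold or more apart over all cells (0%), and 41 of 47 lay within 0.25 of 0 on the log2 scale. CD11b, the antigen used for the enrichment, was lowest, at 1051 in marrow and 1991 in blood (1.89-fold lower), while its RNA Itgam was level. CD11b was 2-fold or more lower inside cluster 0 (1014 and 2038) and cluster 2 (927 and 2058), the single antibody of 47 past 2-fold in each (2.13%). In the tumor-bearing pair its log2 ratio was -0.58. For CD11b the tissue and the enrichment step cannot be told apart.

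Over all cells the summed class II tags were lower in marrow, as was the RNA, with a smaller ratio. The I-A-I-E antibody gave 58.7 in marrow and 108 in blood (1.83-fold lower), against 4.27-fold for H2-Aa RNA. The median cell held 14 I-A-I-E tags in marrow and 15 in blood, of 3151 and 2350.5 tags in all. Inside cluster 0 the antibody gave 46.9 and 54.5 (1.16-fold lower), and inside cluster 2 it gave 62.1 and 82.0 (1.32-fold lower). On the log2 scale the antibody ratios were -0.21 and -0.40 in clusters 0 and 2, and those of H2-Aa RNA -1.19 and -1.11. Ly-6C, the surface marker of classical monocytes, gave 3867 and 2813 (1.37-fold higher), and Ly6c2 RNA was 1.47-fold higher (1.41 to 1.52). CD16.2, the Fc receptor of non-classical monocytes, had a log2 ratio of -0.45 over all cells, and its RNA Fcgr4 one of -0.82. The antibody and RNA ratios were 0.0005 and -0.08 inside cluster 0, and -0.10 and 0.11 inside cluster 2. CD97, an adhesion receptor, gave 288 and 223 (log2 ratio 0.37) while its RNA Adgre5 stood at 345 and 648 CPM (-0.91), so protein and RNA lay on opposite sides. CD184, which is CXCR4, gave 38.7 and 35.2 (0.14), as level as its RNA. No antibody of the panel is named as an isotype control, and tags are shares of 1 total, so a high tag lowers the others.

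**Figure D5:**
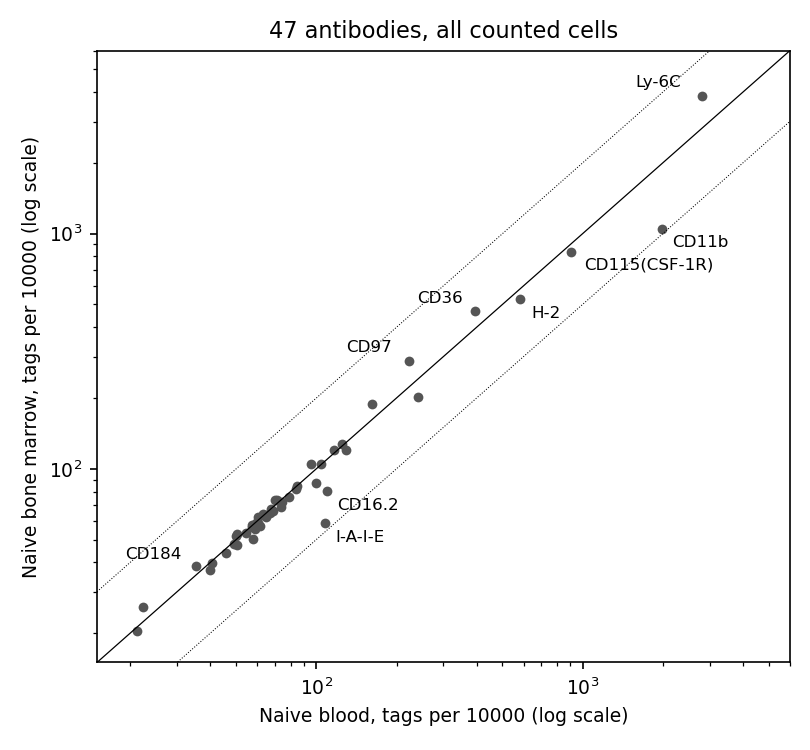
Antibody tags per 10000 tags of the library in naive blood (x axis) and naive bone marrow (y axis), log scales, 1 point per antibody over all counted cells; the solid line marks equal levels and the dotted lines 2-fold. CD11b (1051 and 1991) and I-A-I-E (58.7 and 108) lie nearest to the lower 2-fold line, and all 47 points lie between the lines.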

How the data were processed

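RNA and antibody tags were read in the same cells with 10x Chromium 3′ chemistry, per the labels. As deposited, the files hold UMI counts for each gene in each cell, antibody tag counts, and a table of cells with the library, the cluster number and the mitochondrial fraction of UMIs. Cell Ranger and mm10 are named, with no version or role, per the submitters' processing notes. No header or label records the cell filters, the annotation or how doublets were treated. The table of cells lists 186 marrow and 837 blood cells, of which 153 and 814 have counts and were used. No further filter or doublet caller was applied.

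Counts were summed over cells of a library, scaled to CPM and compared as folds with exact conditional binomial intervals. Ratios on the log2 scale used a pseudo-count of 1 CPM. Genes called had at least 30 UMIs in both libraries together, 20 CPM in 1 and a 2-fold difference. No test was run, since a tissue has 1 library. Thinning to 5000 UMIs left out 8 marrow and 12 blood cells. The interval script was tested on simulated data. Software was Python 3.11.15 with numpy 2.4.6, scipy 1.17.1, pandas 2.3.3 and matplotlib 3.10.9. Positions are from GENCODE M21 (170 of 173 named genes matched 1 entry), and promoter windows from RefSeq on GRCm38.p6.

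Named genes were those that stayed past 2-fold without the richest cell, the 12 most extreme each way over all cells and the 6 each way in clusters 0 and 2, then up to 4 members of each of 44 lists and measured receptor and adhesion genes, some of which are not reported here. Mitochondrial, ribosomal, haemoglobin, immunoglobulin, sex-linked and unnamed genes were left out of the ranking. Cell type markers and the genes behind antibodies were also named. Jund, Jun, Fosl2, Zfp36, Ppp1r15a, Treml4, Mmp8, Chil3, Anxa1 and Lpl were named after their values were seen. The members and lists were chosen with earlier results of these data known.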

Additional observations from a re-analysis of the deposited data

Results flagged for a closer look

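Among 102 genes past 2-fold in naive animals that were also measured in the tumor-bearing pair, 2 were past 2-fold the other way there. Bcl2a1a, a BCL2-related survival gene, was lower in naive marrow (7.79 and 22.1 CPM, log2 ratio -1.39) and higher in tumor-bearing marrow (53.4 and 19.5 CPM, 1.41). Bcl2a1b was lower in naive marrow (25.3 and 52.1 CPM, -1.01) and higher in tumor-bearing marrow (134 and 42.4 CPM, 1.64). In tumor-bearing marrow 1 cell held 15 of the 33 Bcl2a1a UMIs and 50 of the 83 Bcl2a1b UMIs, and without the richest cells the ratios there were 1.74-fold and 1.55-fold. These genes are near-identical copies between which reads may be split uncertainly, and the difference between the pairs was not tested.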

How the results depend on the processing

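No paired analysis was possible because each tissue has 1 library and the labels give no replicate numbers. With 10 UMIs and no CPM minimum, 355 genes were higher and 596 lower in marrow over all cells, 324 and 448 in cluster 0, and 443 and 899 in cluster 2. With 60 UMIs and 50 CPM the numbers were 14 and 51, 14 and 23, and 34 and 81. Thinning gave 75 higher genes over all cells and 141 lower in cluster 0. An equal mix of clusters left 37 lower genes over all cells, 30 of them among the 86. Without the richest cells 41 genes were higher in cluster 0 and 501 lower in cluster 2. The share of calls on the higher side over all cells went from 31.2% to 43.9% at an equal mix, 40.3% thinned, 20% without the richest cells and 21.5% at the stricter minimum. Scaling by the median of ratios moved all genes by 0.01 on the log2 scale and gave 37 higher and 90 lower.

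Ratios that changed sign, all on the log2 scale, were Cxcl2 (-0.16), Eno3 (0.23) and S1pr5 (0.018) at an equal mix, Hba-a2 (-1.22), Hbb-bs (-0.41) and Il1rn (-0.040) without the richest cells, Ifit3b (0.10) in cluster 2, and Vcan (-0.0050), Bcl2a1a (1.41) and Bcl2a1b (1.64) in the tumor-bearing pair. The median of the plasma cell and immunoglobulin list became 0.046 in cluster 0. The cause was not tested. Cells with 5 or more UMIs of the replication and mitosis genes were 20.7% of marrow and 11.8% of blood cells. Those with 20 or more were 0% of both. No antibody was past 2-fold over all cells in any setting run. The depth of the marrow library sets the limit, since 20 CPM there is about 30 UMIs, and in cluster 2 a gene absent from marrow can lie anywhere up to 10.0 CPM. Leaving out clusters 4 and 12, and a tag total without Ly-6C and CD11b, were chosen after seeing the data.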

Other observations

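Some enzymes of sterol synthesis were lower in marrow. Of 18 measured lipid genes 6 were lower and 0 higher, against 1.58% of all measured genes lower. Idi1, Sqle and Hmgcs1, enzymes of the route to cholesterol, were 4.85-fold (3.08 to 8.12), 4.68-fold (2.23 to 11.8) and 2.92-fold lower (2.06 to 4.28). Fdps, Cyp51 and Pmvk of the same route, named after their values were seen, had 52 and 968, 28 and 519, and 22 and 320 UMIs in marrow and blood, which made them 2-fold or more lower. Scd2, a fatty acid desaturase, was 2.49-fold lower (1.64 to 3.98). On the other side Lpl, lipoprotein lipase, had a log2 ratio of 0.75. Inside cluster 0 none of 14 measured lipid genes was past 2-fold, and Hmgcs1 stood at 16.5 and 23.3 CPM.

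Of 5 measured glucocorticoid-responsive and clock genes 3 were lower, against 1.58% of all measured genes. Ddit4, an inhibitor of mTORC1 induced by stress and glucocorticoids, had 5 UMIs in marrow and 369 in blood (11.6-fold lower, 4.94 to 36.0), but 2 and 4 in cluster 0. Tsc22d3, the glucocorticoid-induced leucine zipper protein, stood at 160 and 321 CPM and was 2.40-fold lower in cluster 0 (1.96 to 2.97). Among 16 BCL2 family genes 4 were lower, against 1.58% of all measured genes. Bcl2, which blocks cell death, was 5.92-fold lower (2.83 to 14.9), and Bbc3, which promotes it, 2.61-fold lower (1.86 to 3.79). Antioxidant genes leaned to marrow, 14 of 18 above 0 with a median of 0.38 and none past 2-fold. Cytosolic ribosomal protein genes and nuclear respiratory chain genes were level, with medians of 0.03 and 0.14 over 76 genes each and none past 2-fold.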
